A study of Homo sapiens with 2 samples.

Results

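SVA elements are composite retrotransposons found in apes, and the repeat tables of this study list them as 6 subfamilies, SVA-A, SVA-B, SVA-C, SVA-D, SVA-E and SVA-F. These 6 names, every row whose name starts with SVA, were followed here out of 5833 repeat names. The cells came from H9, an established human embryonic stem cell line. The ESC group held 16 H9 embryonic stem cells, and the ffEPSC group held 25 extended pluripotent stem cells that had been converted from H9. Each state was deposited as 1 sample, so the cells of a state share that sample and are not replicates. The labels name no genetic change or drug for either group, and the sources used here do not give the culture media or passage. All cells derive from this 1 line.

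An SVA element joins a run of CCCTCT hexamers, an Alu-like stretch, a variable number of tandem repeats and a SINE-R that descends from the end of an HERV-K provirus, followed by a poly(A) tail. The element codes for no protein and is copied by the machinery of LINE-1. SVA-A is regarded as the oldest subfamily, and SVA-E and SVA-F as restricted to humans. In pluripotent cells SVA copies are bound by the zinc finger proteins ZNF91 and ZNF611, which recruit TRIM28 and its partners to silence them. LTR5-Hs is the youngest form of the promoter of the HERV-K provirus, whose inner part is listed as HERVK-int, and it is known as a marker of early embryonic and naive-like states.

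Repeat counts came to 129041480 in the 16 ESCs, 4560140 to 11088400 per cell, and to 179248893 in the 25 ffEPSCs, 5018790 to 9825753 per cell. SVA rows held 62752 of the ESC counts, or 0.0486%, and 330960 of the ffEPSC counts, or 0.185%. Levels are given as repeat CPM, the count of a row after the repeat counts of the same cell or state were scaled to a total of 1000000. That denominator was dominated by SSU-rRNA-Hsa, a ribosomal RNA row with 51.2% of repeat counts in ESCs and 44.1% in ffEPSCs. Cell names carry a set number from 1 to 4, whose meaning is not given. ESCs were in sets 1 (7 cells) and 3 (9 cells), and ffEPSCs were in sets 1 (3 cells), 2 (9), 3 (2) and 4 (11). Some cells stood apart. In 4 ESCs POU5F1, a core pluripotency factor, was under 300 CPM, which is the same scaling with gene counts as the total. In 7 ffEPSCs the genes of chromosomes 5, 11, 14, 20 and 22 did not show the mean upward shift (a log2 shift of 0.3 or more) seen in the other 18. All 8 pluripotency markers were detected in both states and none differed by 2-fold. Of 6 fibroblast or feeder markers 3 were listed, and their summed level was 60.4 to 634 CPM per ESC and 32.5 to 406 CPM per ffEPSC. Most of that was THY1, which pluripotent cells also express, with pooled levels of 382 CPM (ESC) and 169 CPM (ffEPSC). Of the 3, THY1 (log2 ratio -1.18) and COL1A1 (-1.56) were at least 2-fold lower in ffEPSCs and COL1A2 was at -0.31. The endoderm marker AFP (-1.97) and the trophoblast marker KRT7 (-1.60) were also at least 2-fold lower, from 13.6 and 6.93 CPM in ESCs. The other listed markers of endoderm, trophoblast, neuroectoderm and mesoderm were under 5 CPM in both states. Summed per list, these 4 lists were at most 28.5, 24.5, 4.71 and 3.68 CPM in an ESC and 18.6, 16.9, 0.949 and 43.2 CPM in an ffEPSC. The part of these cell-to-cell and state differences in the SVA levels was not tested.

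SVA-F was the subfamily that separated the states. In the 16 ESCs it was between 45.7 and 202 repeat CPM with a median of 116, and in the 25 ffEPSCs it was between 389 and 1953 with a median of 1334. The ranges did not overlap: the lowest ffEPSC exceeded the highest ESC. Pooled over cells, SVA-F was at 111 repeat CPM in ESCs (95% interval for counting error alone, 109 to 113) and at 1258 in ffEPSCs (1253 to 1263). The pooled level was 11.4-fold higher in ffEPSCs, a log2 ratio of 3.49 (3.48 to 3.53) after adding 1 to both levels. With 1 sample per state no test of the difference was possible, and every interval given covers counting error only.

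**Figure D1:**
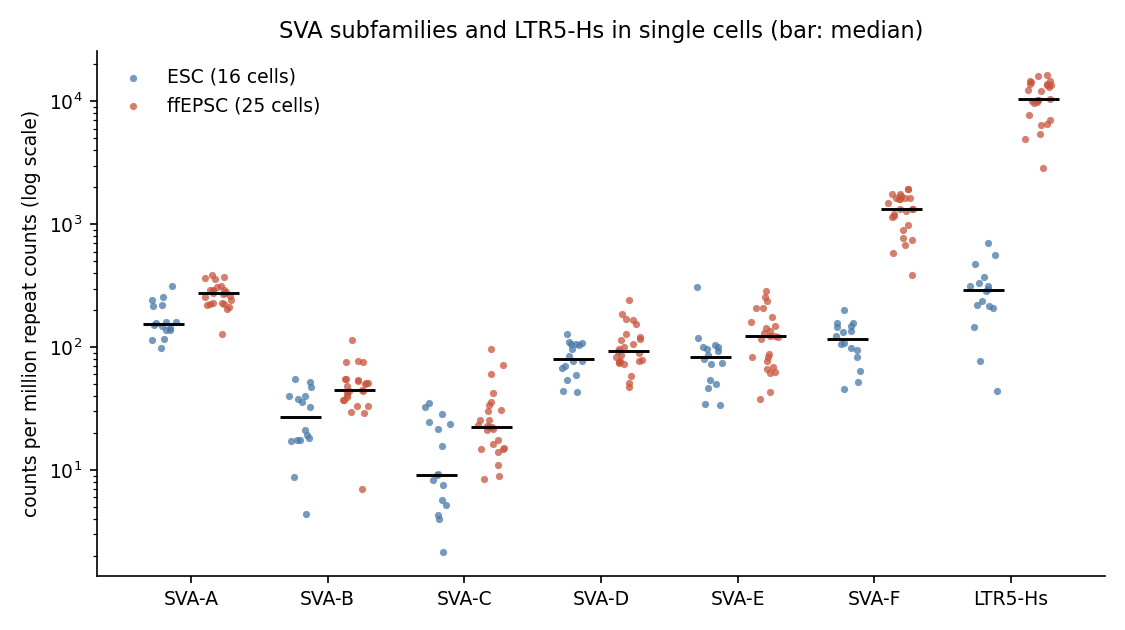
Level of each SVA subfamily and of LTR5-Hs in every cell, in repeat CPM on a log axis, with 1 point per cell (16 ESCs and 25 ffEPSCs) and a bar at the median over cells. The SVA-F points of the ffEPSCs, 389 to 1953, all lie above those of the ESCs, 45.7 to 202, whereas the points of SVA-A to SVA-E overlap.

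The other subfamilies had higher pooled levels in ffEPSCs as well, by 1.31-fold to 1.90-fold, and each overlapped between the states. SVA-A, the oldest, was at 99.2 to 314 repeat CPM in ESCs (median 155) and at 128 to 387 in ffEPSCs (median 275). Its pooled level went from 165 to 271, a log2 ratio of 0.71 (0.69 to 0.74), and 5 of 25 ffEPSCs lay above every ESC. The median ESC was exceeded by 24 of the 25 ffEPSCs, and the other 20 ffEPSCs lay at or below the highest ESC. SVA-B was at 4.43 to 55.1 repeat CPM in ESCs (median 27.1) and at 7.06 to 115 in ffEPSCs (median 44.7), with a pooled log2 ratio of 0.79. SVA-C, the least counted subfamily, was at 2.16 to 35.2 in ESCs (median 9.21) and at 8.45 to 95.7 in ffEPSCs (median 22.5), with a pooled log2 ratio of 0.88. For both subfamilies 5 ffEPSCs exceeded all ESCs.

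SVA-D and SVA-E, the subfamilies counted at similar levels to each other in ESCs, differed least. SVA-D was at 43.0 to 128 repeat CPM in ESCs (median 80.7) and at 47.7 to 241 in ffEPSCs (median 93.7), a pooled log2 ratio of 0.38. In SVA-D, 16 of 25 ffEPSCs exceeded the median ESC. SVA-E, which like SVA-F is human-specific, was at 34.1 to 311 in ESCs (median 83.9) and at 38.1 to 287 in ffEPSCs (median 124), a pooled log2 ratio of 0.63. For SVA-E 0 of 25 ffEPSCs lay above all ESCs. The high end of the ESC range was a single set 1 cell, among those low in POU5F1, at 311 for SVA-E, 314 for SVA-A and 202 for SVA-F. The other 15 ESCs did not exceed 118 for SVA-E, 256 for SVA-A and 158 for SVA-F. Leaving out the cell richest in SVA in each state gave log2 ratios of 3.51 for SVA-F and 0.70 for the 5 older subfamilies summed.

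Summed over the 6 subfamilies, SVA counts were 486 repeat CPM in ESCs and 1846 in ffEPSCs, a log2 ratio of 1.92. SVA-F made up 84.3% of that gain. SVA-A to SVA-E together went from 376 to 588 repeat CPM, a log2 ratio of 0.65 (0.63 to 0.66). The SVA-F ratio exceeded this by 2.85 on the log2 scale. With the older group taken as SVA-A to SVA-D, leaving SVA-E out, the difference was 2.85 again.

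These ratios were set against the 395 transposable element and satellite rows that reached 100 repeat CPM in at least 1 state. Of the 6 SVA rows 4 reached that level. SVA-A and SVA-F reached it in both states and SVA-D and SVA-E only in ffEPSCs, where they were higher, while SVA-B and SVA-C did not reach it. Among the subfamilies 1 of 6, SVA-F, was at least 2-fold higher, and 3.8% of the 395 rows were. None of the 6 was at least 2-fold lower, and 0.506% of the rows were. All 6 had a log2 ratio above 0, which 81% of the rows also had, so the sign alone does not set the SVA apart. The full separation of cells seen in SVA-F was shared by 0.759% of the rows, which is 3 of 395, with LTR5-Hs and HERVK-int as the other two. The median log2 ratio was 0.75 over the 6 subfamilies and 0.18 over all rows, with the 5th and 95th percentiles of the rows at -0.29 and 0.78. SVA-F ranked 4 of 395. The 3 larger ratios were LTR5-Hs at 5.18, HERVH48-int at 4.77 and HERVK-int at 4.09, of which HERVH48-int was named after its value was seen. Ratios larger than that of SVA-D were found in 74 rows, and ratios larger than that of SVA-A in 21.

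**Figure D2:**
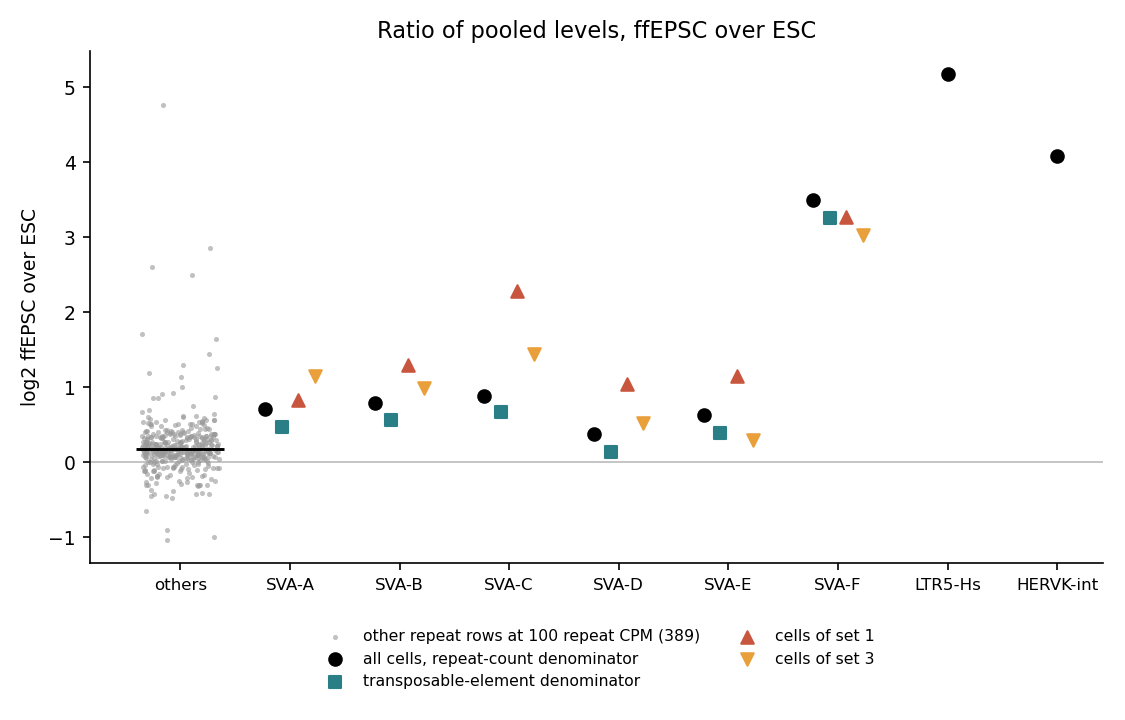
Log2 ratio of pooled levels, ffEPSC over ESC, for the 389 other repeat rows at 100 repeat CPM or more (grey, with a bar at the median of all measured rows, 0.18) and for the SVA subfamilies by denominator and by set, with LTR5-Hs and HERVK-int beside them. SVA-F lies between 3.03 and 3.49 in each version, and SVA-A to SVA-E lie between 0.14 and 2.29.

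The choice of denominator moved all rows together. With counts of transposable elements and satellites in place of all repeat counts, the median of the 395 rows was -0.07, a move of more than 0.1, and 37.7% of rows were above 0. On that scale SVA-F was at a log2 ratio of 3.26, SVA-A at 0.47, SVA-B at 0.56, SVA-C at 0.67, SVA-D at 0.14 and SVA-E at 0.39. All 6 remained above the median row and above 0. With gene counts as the denominator, the summed SVA had a log2 ratio of 1.90 and SVA-F one of 3.46.

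The makeup of the SVA counts differed between the states. In ESCs SVA-A gave 33.98% of SVA counts, SVA-F 22.8%, SVA-E 17.2%, SVA-D 17.0%, SVA-B 5.87% and SVA-C 3.15%. In ffEPSCs SVA-F gave 68.1% (Clopper-Pearson 95% interval 68.0 to 68.3), followed by SVA-A at 14.7%, SVA-E at 7.05%, SVA-D at 5.86%, SVA-B at 2.72% and SVA-C at 1.57%. The order of the other 5 was the same in both states, although in ESCs the counting intervals of SVA-E and SVA-D overlapped. SVA-A was the most counted subfamily in 14 of 16 ESCs and SVA-F in 2 of them, whereas SVA-F was the most counted in 25 of 25 ffEPSCs. Per cell, the SVA-F share was 13.9% to 40.6% in ESCs (median 20.2%) and 49.7% to 80.1% in ffEPSCs (median 70.6%), again without overlap. These shares are shares of counts. Neither copy number nor element length is in the tables, so they do not rank the subfamilies by transcription per copy.

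**Figure D3:**
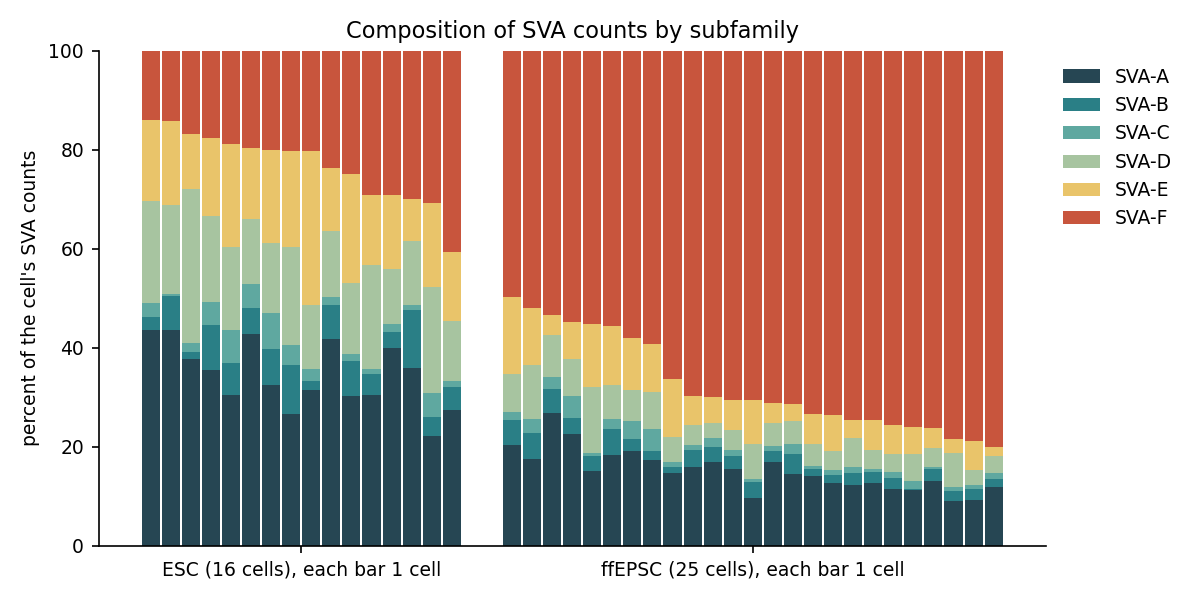
Share of SVA counts, in percent, taken by each of the 6 subfamilies in every cell, with 1 bar per cell, ordered by the SVA-F share within each state. SVA-F takes 13.9% to 40.6% in the ESCs and 49.7% to 80.1% in the ffEPSCs.

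Sets 1 and 3 held cells of both states and allowed the comparison inside a set. In set 1 (7 ESCs and 3 ffEPSCs) the log2 ratio was 3.27 for SVA-F, 0.83 for SVA-A, 1.29 for SVA-B, 2.29 for SVA-C, 1.05 for SVA-D and 1.15 for SVA-E. In set 3 (9 ESCs and 2 ffEPSCs) it was 3.03, 1.15, 0.99, 1.45, 0.52 and 0.30 in the same order. SVA-F had the largest ratio in both sets, and the older subfamilies varied more from set to set. The median of the 395 rows was 0.59 in set 1 and 0.24 in set 3. Inside a state, SVA-F was lower by 0.60 on the log2 scale in set 3 than in set 1 of the ESCs. Between sets 4 and 2 of the ffEPSCs the log2 difference was -0.04, but set 3 was lower than the other sets. Pooled SVA-F in ffEPSCs was 1354 repeat CPM in set 1, 1317 in set 2, 758 in set 3 (2 cells) and 1284 in set 4. LTR5-Hs was also lowest in set 3, at 5968, with 10273 to 11859 in the other sets. The 2 ffEPSCs of set 3 were among the 7 without the chromosome shift, and no set 2 cell was. In set 3, set and lack of shift cannot be told apart.

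The cells that stood apart also differed in SVA-F. The 4 ESCs low in POU5F1 had 147 to 202 repeat CPM of SVA-F (pooled 162), and the other 12 had 45.7 to 150 (pooled 96.8). In SVA-A the same groups had pooled levels of 164 and 165. Other subfamilies differed in either direction, with 18.2 and 31.3 for SVA-B and 113 and 75.7 for SVA-E. SVA-C was at 15.6 and 15.2, and SVA-D at 84.8 and 82.2. Over the 16 ESCs, Spearman's rho of SVA-F was -0.64 with POU5F1 and -0.58 with the total gene counts of the cell, a description over cells of 1 library. Without those 4 cells the log2 ratio of SVA-F was 3.69. Among ffEPSCs, the 7 cells without the chromosome shift had 389 to 1338 repeat CPM of SVA-F (pooled 895), and the other 18 had 749 to 1953 (pooled 1422). In SVA-A these groups had pooled levels of 269.5 and 271.4. SVA-B (59.1 and 46.1), SVA-C (39.1 and 24.5) and SVA-D (112 and 107) were higher in the cells without the shift. SVA-E was lower in them (112 and 138). LTR5-Hs differed in the same direction as SVA-F, with 7059 and 11954. The 7 cells include the ffEPSCs of set 3, so their low levels and those of set 3 are in part the same cells. With only the 7 cells kept, the log2 ratio of SVA-F was 3.004, and with the 5 of them that were also under the cut on chromosome 5 it was 2.73, from a pooled level of 740. The lowest of these cells, at 389, still exceeded every ESC.

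Cells of a state varied by more than counting error in every subfamily. In ESCs the coefficient of variation over cells was 34.03% for SVA-A, 53.4% for SVA-B, 75.1% for SVA-C, 31.0% for SVA-D, 70.3% for SVA-E and 36.9% for SVA-F. Counting alone gives 2.84% to 9.35%. In ffEPSCs it was 22.1%, 42.5%, 72.1%, 43.3%, 52.2% and 33.5% in the same order, where counting alone gives 1.06% to 7.01%. SVA-C, with the fewest counts, varied most in both states, and SVA-A varied least in ffEPSCs. Smart-seq2 carries no molecular identifiers, so amplified copies of a molecule are counted as separate reads.

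Levels of the subfamilies were loosely related to each other across cells. Among SVA-A to SVA-E the 10 pairwise values of Spearman's rho were 0.07 to 0.55 in ESCs (median 0.36) and 0.08 to 0.48 in ffEPSCs (median 0.18). Between SVA-F and each of the other 5 they were -0.04 to 0.29 in ESCs (median 0.24) and -0.13 to 0.14 in ffEPSCs (median -0.07). All rows of a cell share a denominator, so these are descriptions of 16 and 25 cells and carry no p-value.

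LTR5-Hs, the HERV-K promoter, was the repeat whose level tracked SVA-F most closely in ffEPSCs. It was at 43.9 to 699 repeat CPM in ESCs (median 291) and at 2881 to 16494 in ffEPSCs (median 10406), and its pooled level went from 287 to 10430, which is 36.3-fold. Over the 25 ffEPSCs, SVA-F and LTR5-Hs had a Spearman's rho of 0.96 and a Pearson's r of 0.98 on the log2 scale. No other row among the 383 other transposable element and satellite rows measured in ffEPSCs had a higher rho with LTR5-Hs. Their median was -0.01 and their 5th and 95th percentiles were -0.31 and 0.39. HERVK-int, the inner part of the provirus, was at 0.83. The older subfamilies lay between the 5th and 95th percentiles: SVA-A at 0.05, SVA-B at -0.09, SVA-C at -0.04, SVA-D at 0.17 and SVA-E at 0.15. Of the 383 rows 73 exceeded SVA-D and 78 exceeded SVA-E. The values of the older subfamilies changed with the measure, the cells and the denominator. Pearson's r on the log2 scale was 0.39, -0.10, -0.02, 0.25 and 0.16 from SVA-A to SVA-E. With transposable element and satellite counts the rho of SVA-A was 0.25. In set 2 the rho was -0.15 for SVA-A and -0.27 for SVA-D, and in set 4 they were at 0.56 and 0.71. SVA-B, SVA-C and SVA-E were at -0.30, 0.20 and -0.33 in set 2 and at 0.18, 0.29 and 0.03 in set 4. With gene counts as the denominator SVA-D was at 0.33, and 29 rows exceeded it.

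**Figure D4:**
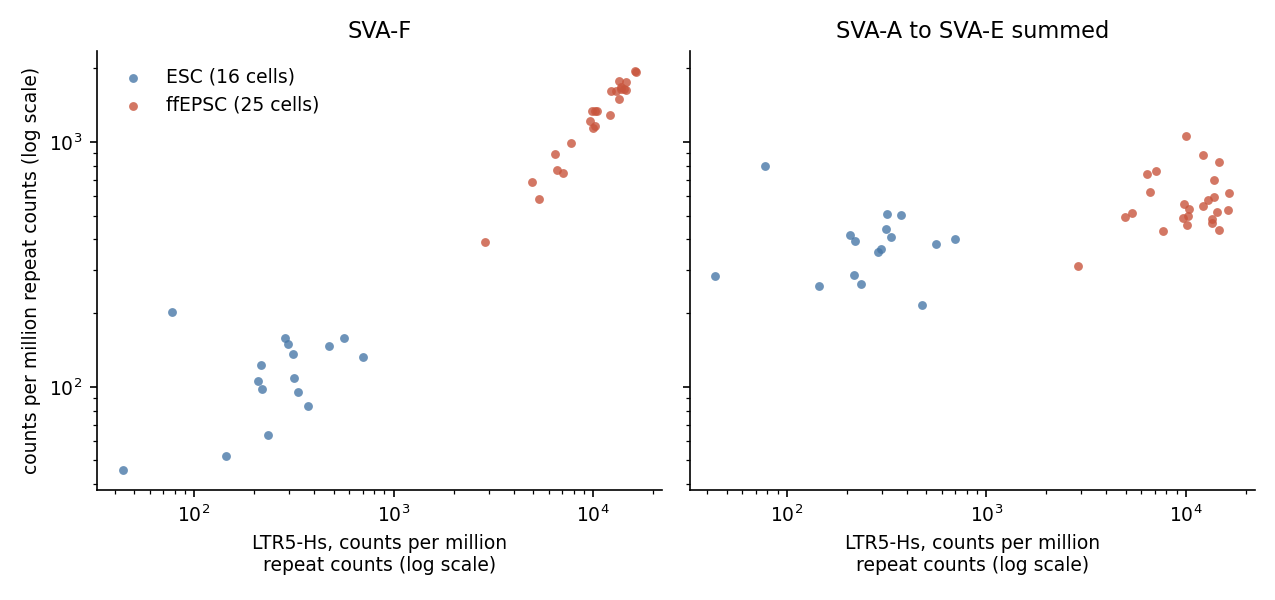
Level of SVA-F against LTR5-Hs, and of SVA-A to SVA-E summed against LTR5-Hs, in repeat CPM on log axes, with 1 point per cell. SVA-F and LTR5-Hs fall along a line in the 25 ffEPSCs (rho 0.96), and the older subfamilies do not.

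The relation in ffEPSCs was present inside each set with enough cells, with rho at 0.95 over the 9 cells of set 2 and 0.96 over the 11 cells of set 4. It was 0.95 after thinning each cell to 4000000 repeat counts, 0.98 with gene counts as the denominator and 0.98 with transposable element and satellite counts, the last added after seeing the data. Without the 2 cells farthest from the median LTR5-Hs level it was 0.94, and without the 7 cells lacking the chromosome shift it was 0.93. SVA-F and LTR5-Hs also moved together with depth and with another gene. Over the same 25 cells SVA-F had a rho of -0.60 with total repeat counts, and LTR5-Hs one of -0.54. With DNMT3L, a cofactor of DNA methylation, both had a rho of 0.80. The part of depth and of DNMT3L in the relation was not tested.

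In ESCs the relation was weaker in rho and depended on the cells and on the denominator. Over the 16 ESCs rho between SVA-F and LTR5-Hs was 0.31 and Pearson's r on the log2 scale was 0.44. The median of 355 other rows was 0.26, with the 5th and 95th percentiles at -0.03 and 0.58, and 120 rows exceeded SVA-F. That rank depended on the denominator. With gene counts rho was 0.49, above the 95th percentile of 0.47, and 13 of 355 rows exceeded it. With transposable element and satellite counts, a denominator added after seeing the data, rho was 0.33, the median row was at -0.09 and 21 rows exceeded it. Inside set 1 (7 cells) rho was -0.57, and inside set 3 (9 cells) it was 0.80. Without the ESC richest in SVA, which had 202 repeat CPM of SVA-F and 77.6 of LTR5-Hs, rho was 0.54. Over all 16 ESCs rho was 0.23 for SVA-A, 0.21 for SVA-B, -0.26 for SVA-C, -0.16 for SVA-D and 0.24 for SVA-E. HERVK-int was at 0.77. The older subfamilies also depended on the cells. Without the ESCs low in POU5F1 they were at 0.77, 0.34, -0.06, 0.31 and 0.67 from SVA-A to SVA-E, beside 0.43 for SVA-F. SVA-A and SVA-E were thus above SVA-F in those cells. Whether the relation differs between the states was not tested.

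**Figure D5:**
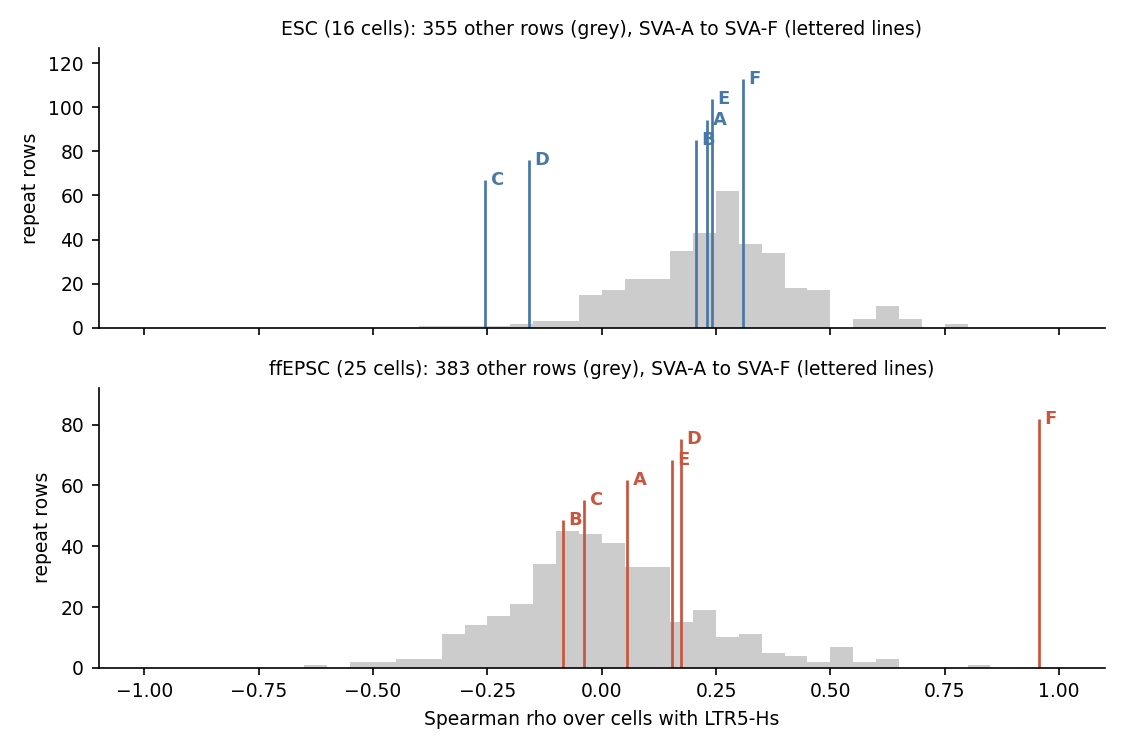
Spearman's rho over cells with LTR5-Hs for the other transposable element and satellite rows of each state (grey histogram, number of rows on the vertical axis) and for SVA-A to SVA-F (lettered lines, whose heights have no meaning). In ffEPSCs SVA-F lies at 0.96, beyond all 383 grey rows, and in ESCs it lies at 0.31 with 120 of 355 rows above it, all with repeat counts as the denominator.

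The number of LTR5-Hs counts per SVA-F count was nearly constant in ffEPSCs. It was 8.29 pooled and 7.20 to 9.45 over the 25 cells (median 8.30), with a coefficient of variation of 8.33%. For LTR5-Hs against the other 5 subfamilies the coefficient was 37.7% (SVA-A) to 123% (SVA-B). For HERVK-int against LTR5-Hs, rows for the inner part and youngest promoter of HERV-K, it was 24.9%. For HERVH-int against LTR7, the inner part and promoter of HERV-H, it was 16.2%. In ESCs the number of LTR5-Hs counts per SVA-F count was 2.59 pooled and ran from 0.384 to 5.28 over cells, with a coefficient of variation of 47.2%. A straight line through the ffEPSCs had a slope of 114 repeat CPM of SVA-F per 1000 repeat CPM of LTR5-Hs and an intercept of 70.9. The ESC line had a slope of 77.4 and an intercept of 92.9. The SINE-R of SVA descends from HERV-K sequence, and the sources used here do not say how reads matching both were assigned. The part of shared reads in this ratio was not tested.

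Other members of the LTR5 family stood between SVA-F and the older SVA in their ratios. The pooled log2 ratio was 0.92 for LTR5A, 1.44 for LTR5B and 1.26 for the row named LTR5. In ffEPSCs their rho with LTR5-Hs was 0.36, 0.53 and 0.55, and 23, 6 and 5 of the 383 other rows exceeded them. In ESCs it was -0.33, 0.08 and -0.30, below the median row at 0.26. LINE-1, which supplies the copying machinery for SVA, differed less, with log2 ratios of 0.53 for L1HS, 0.37 for L1PA2, 0.27 for L1PA3 and 0.32 for L1PA4. The young Alu rows, which use the same machinery, were at 0.14 for AluY, -0.01 for AluYa5 and 0.18 for AluYb8. HERVH-int and LTR7, the abundant provirus of human pluripotent cells, were at 0.10 and -0.01. With the transposable element denominator the sign turned for AluY (-0.11), AluYb8 (-0.07) and HERVH-int (-0.14), while the 4 LINE-1 rows lay between 0.02 and 0.29.

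Genes known to control SVA or young retrotransposons were taken as a list of 24, of which 23 were listed, and each of these reached 5 CPM in at least 1 state. At least 2-fold higher in ffEPSCs were 5 of 23, where 8.3% of the 10825 genes at 5 CPM were, and at least 2-fold lower were 3 of 23, where 5.84% were. The median log2 ratio of the list was 0.42, and that of all genes was 0.04. The repressors that bind SVA differed little. ZNF91 was at 40.3 and 34.2 CPM (ESC and ffEPSC), a log2 ratio of -0.23. ZNF611 was at 12.6 and 17.7, a log2 ratio of 0.46. TRIM28, the corepressor they recruit, was at 185 and 247, a log2 ratio of 0.42, and the histone methyltransferase SETDB1 had a log2 ratio of -0.32. Cells of the states overlapped in all of these genes.

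The genes past 2-fold had mixed roles. DNMT3L was at 0 to 1.101 CPM in ESCs and at 1.80 to 1114 in ffEPSCs, without overlap, a log2 ratio of 7.75 from 0.219 to 261 CPM. TFAP2C, a transcription factor of naive pluripotency, was at 7.75 and 85.7 CPM, a log2 ratio of 3.31, and KLF4, known to activate SVA and LTR5-Hs in naive cells, was at 1.98 and 17.3, a log2 ratio of 2.61. SAMHD1, a nucleotide hydrolase that restricts LINE-1, had a log2 ratio of 1.196, and MORC2, a partner of the HUSH silencing complex, one of 1.16. Lower in ffEPSCs were APOBEC3B, a cytidine deaminase, at a log2 ratio of -2.08, TET2, which oxidises methylcytosine, at -1.44, and MOV10, a helicase that restricts LINE-1, at -1.31. Within ffEPSCs the rho with SVA-F was above 0 for 7 of the 23 genes and below 0 for 16, with a median of -0.16. The 8 pluripotency markers were all below 0 as well, from -0.41 (SOX2) to -0.002 (TDGF1), so the sign does not set the list apart. The share over all genes is not given here. Of the genes past 2-fold, DNMT3L was at 0.80, SAMHD1 at 0.25, APOBEC3B at 0.23, KLF4 at 0.12, TET2 at 0.02, TFAP2C at -0.10, and MORC2 and MOV10 at -0.44. The lowest rho in the list was that of ATF7IP, a partner of SETDB1, at -0.66. Next were TASOR, a subunit of the HUSH complex, at -0.48 and UHRF1, which guides maintenance methylation, at -0.46. The pooled log2 ratios of ATF7IP, TASOR and UHRF1 were 0.65, 0.64 and -0.87.

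The repeats whose levels followed the summed SVA in both states were found by the lower of their within-state values of rho. Over 349 rows at 100 repeat CPM in both states the leading 5 were X6A-LINE at 0.55, Tigger2 at 0.53, MER50 at 0.53, AluYb8 at 0.52 and LTR23 at 0.47, where the 95th percentile of rows was 0.41. LTR5-Hs was not among them, because its rho in ESCs was 0.34. Summed SVA itself had a rho of -0.68 (ESC) and -0.44 (ffEPSC) with the SSU-rRNA-Hsa share of repeat counts. The part of that share in the values of these repeats was not tested. The leading genes among 5886 at 20 CPM in both states were CDK2AP2 at 0.52, MRPS11 at 0.49, ZNF334 at 0.49, PPP2R5C at 0.48 and C20orf96 at 0.47, with a 95th percentile of 0.18. Their pooled log2 ratios ran from -0.46 to 0.84. In ffEPSCs alone the rows most like SVA-F were LTR5-Hs at 0.96, HERVK-int at 0.82, MER34B-int at 0.64, MER11A at 0.63 and MER50 at 0.63. In ESCs alone the row most like it was AluYa5 at 0.79.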

How the data were processed

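Single-cell Smart-seq2 libraries were made from polyA RNA, per the labels' protocols. The values are raw counts per gene and per repeat name, deposited by the authors with 1 column per cell. Per the submitters' processing notes the builds were GRCh38 and T2T-CHM13, and the tools included featureCounts, Subread 2.0.6, HISAT2 2.2.1 and SAMtools 1.6. The sources used here do not give their roles, the repeat library, strand or treatment of multi-mapped reads. Nearly all gene counts were even (98.5% of non-zero values in ESCs and 98.4% in ffEPSCs) and 49.7% and 49.4% of repeat counts were.

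Counts were summed per state or taken per cell, divided by total repeat counts (genes: total gene counts), and compared as log2 ratios after adding 1. Intervals at 95% are Clopper-Pearson for shares, exact Poisson for levels and exact conditional binomial for ratios. Repeats were sorted by name into 1208 transposable elements and satellites, 4526 simple repeats, 76 RNA genes and 23 composites. Chromosomes came from GENCODE 29. No cell was removed, 0 cell columns were identical, and doublets were not called. Each state is 1 sample, so no test was run.

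The members and lists were chosen with earlier results of these data known. Named were all SVA rows, set lists of comparison repeats and control genes, and the 5 repeats and 5 genes most like the summed SVA. Alternatives covered denominator, summary over cells, pseudocount, floor, thinning and which cells entered. The functions were tested on simulated data. Python 3.11.15, NumPy 2.4.6, pandas 2.3.3 and SciPy 1.17.1 were used.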

Additional observations from a re-analysis of the deposited data

How the results depend on the processing

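No paired analysis was possible because each state is 1 sample and both carry replicate number 1 only. Every log2 ratio, for the 6 subfamilies and their sums, was above 0 under the 11 alternatives run for it, and SVA-F had 2.73 to 3.69. Settings in the order gene-count denominator, transposable element denominator, mean over cells, set 1, set 3 and without the ESCs low in POU5F1 gave log2 ratios of 1.90, 1.68, 1.89, 1.99, 1.68 and 1.98 for summed SVA, of 3.46, 3.26, 3.48, 3.27, 3.03 and 3.69 for SVA-F, and of 0.62, 0.40, 0.58, 1.07, 0.90 and 0.67 for SVA-A to SVA-E, which had 0.45 by the median over cells. Without the cell richest in SVA in each state the summed SVA was at 1.96 and SVA-A to SVA-E at 0.70. With only the 7 ffEPSCs lacking the chromosome shift, which included the set 3 ffEPSCs, the summed SVA was at 1.61 and SVA-F at 3.004. With the 5 also under the cut on chromosome 5, a choice made after seeing the data, summed SVA, SVA-F and SVA-A to SVA-E were at 1.49, 2.73 and 0.74.

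The excess of SVA-F over the older subfamilies was 2.90 by the mean and 3.06 by the median over cells, 2.203 in set 1, 2.13 in set 3, 3.02 without the low POU5F1 cells, 2.81 without the richest cells, 2.35 with the 7 ffEPSCs and 1.99 with the 5. The SVA-F share in ESCs was 23.1% by the mean, 20.2% by the median, 24.7% in set 1, 21.2% in set 3 and 20.7% without the low POU5F1 cells. In ffEPSCs it was 67.6%, 70.6%, 60.2% and 54.3% in the first 4 of these, 67.7% without the richest cell, 60.2% with the 7 ffEPSCs and 54.2% with the 5.

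The rho of SVA-F with LTR5-Hs in ESCs was the least stable value. It was 0.44 as Pearson's r, 0.49 per gene count, -0.57 in set 1, 0.80 in set 3, 0.43 without the low POU5F1 cells, 0.19 without the 2 cells farthest in LTR5-Hs and 0.54 without the richest cell. For summed SVA in ESCs the main value of 0.34 became 0.10, 0.18, 0.14, 0.52 and 0.71 under the first 5 of these, 0.58 without the richest cell, 0.23 against HERVK-int and -0.035 with the transposable element denominator. For the relations with LTR5-Hs in both states, that denominator, the removal of the richest cell and the removal of the 7 ffEPSCs lacking the chromosome shift were added after seeing the data. In ffEPSCs the exchange of LTR5-Hs for HERVK-int gave 0.82 for SVA-F and 0.80 for summed SVA. With no floor 61 repeats were at least 2-fold higher and 17 lower, and with a floor of 500 repeat CPM 4 and 1, against 15 and 2. The cause of these moves was not tested. Members at least 2-fold higher numbered 2 by the median over cells, where 4.56% of the 395 rows were, 5 in set 1 (11.4% of rows), 3 in set 3 (6.08%), 3 with the 7 ffEPSCs (3.54%) and 3 with the 5 (4.56%), against 1 (3.8%).

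Depth limited SVA-B and SVA-C most, where single cells held as few as 47 and 14 counts. With 1 sample per state, differences between samples of a state cannot be told apart from the difference between states.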

Other observations

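Simple repeat rows carrying the CCCTCT unit that opens an SVA element were looked at after the data were seen, in any phase and on both strands. Of 12 possible names 11 were listed. The row (TCTCCC)n was at 14.3 to 212 repeat CPM in ESCs (median 54.0) and at 93.2 to 251 in ffEPSCs (median 164), a pooled log2 ratio of 1.44 from 60.7 to 166. The states overlapped, with 3 ffEPSCs above all ESCs. Among 252 simple repeat rows at 50 repeat CPM the median log2 ratio was 0.08 and the 95th percentile 1.15, and 11 rows had a larger one. Over the 25 ffEPSCs this row had a rho of 0.07 with SVA-F and 0.01 with LTR5-Hs, and 190 of the 252 rows had a higher rho with SVA-F. The row (CCTCTC)n was at 11.1 and 12.3 repeat CPM, a log2 ratio of 0.13.

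Genes most like SVA-F, in place of the summed SVA, were ranked by the same rule after the data were seen. The leading 5 of 5886 were IFITM3 at 0.72, NDUFA5 at 0.63, FTH1 at 0.62, GSTP1 at 0.59 and IFITM1 at 0.56, where the 95th percentile was 0.20. IFITM3 and IFITM1 encode interferon-induced membrane proteins that block virus entry, and are similar in part. The treatment of multi-mapped reads is not given, so shared reads could affect their counts, which was not tested. IFITM3 was at 409 CPM in ESCs and 2150 in ffEPSCs, a log2 ratio of 2.39, and IFITM1 at 203 and 1337, a log2 ratio of 2.71. GSTP1, a glutathione transferase, was at 2002 and 4719 CPM, a log2 ratio of 1.24, with a rho of 0.83 with SVA-F in ffEPSCs. FTH1 had a log2 ratio of -0.09 and NDUFA5 one of 0.22. Of the 5 genes 4 lie on chromosome 11, which is among the chromosomes with a shift in ffEPSCs. The share of the 5886 genes that lie on chromosome 11 is not given here, so this count has no background. SVA-F itself had a rho of 0.23 over the 25 ffEPSCs with the mean shift of all those chromosomes, not of chromosome 11 alone. The part of the shift in these values was not tested.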
